A study of Arabidopsis thaliana with 8 samples.

Results

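A set of 42 probe sets read at the bottom of the scale in both wild type (WT) protoplast arrays and clearly above it in both 35S:ORE1 protoplast arrays. They were chosen by value from the 22746 probe sets of the array that are not controls. Both WT values had to lie within 0.1 log2 of the lowest value of their own array, which is called off here, and both 35S:ORE1 values had to be at log2 5 or more, which is called on. That rule found 55 probe sets, and 13 named loci among them were left out, among these the cell death gene PASPA3 and the sugar transporter gene SWEET7. Of the 42 members, 17 are listed with 1 gene and 25 with none, and none is listed with several.

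The Arabidopsis thaliana series holds 8 single-colour Affymetrix arrays of total RNA, 2 in each of 4 groups, all in the Col-0 ecotype. The protoplast groups were made from leaf mesophyll cells of 5-week-old soil-grown plants, and either expressed a 35S:ORE1 construct transiently for 6 h or are labelled WT protoplast, with no time given for the latter. The seedling groups were 2-week-old whole seedlings of the line ORE1-IOE, given 10 µM estradiol for 2 h or, as a mock treatment, 0.1% ethanol, so the inducible transgene was in both of them. The 35S promoter is constitutive, and the labels give neither the share of protoplasts that took up the construct nor a mock transfection of the WT group. The labels do not say whether replicates came from separate preparations or plants, so p-values may measure technical spread only.

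ORE1 is a NAC-domain transcription factor that promotes leaf senescence and the cell death that ends it. Its transcript rises as leaves age, and it is known to raise genes for nucleases, chlorophyll breakdown and other steps of dismantling a leaf. A value at the bottom of an array says only that nothing above its lowest value was recorded for that probe set. In these bulk samples fewer cells of a type and less RNA per cell cannot be told apart.

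Off was a common state in WT protoplasts and on was a rare outcome. Of the 22746 probe sets, 8641 were off on both WT arrays, and 8242 of these stayed off on both 35S:ORE1 arrays. A further 344 were neither off nor on with 35S:ORE1. The reverse rule, off on both 35S:ORE1 arrays and on in both WT arrays, found 0 probe sets, although 8443 were off with 35S:ORE1. The value rule held for 0.242% of all probe sets. Because the protoplast values chose the members, their protoplast levels are a description and carry no test.

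Facts of the arrays bear on all of these values. The lowest value was 2.19 on both arrays numbered 1 and 2.18 on both numbered 2, and 39.8% to 41.6% of the probe sets lay at it or within 0.1 on a protoplast array. The WT and 35S:ORE1 arrays of number 1 held exactly equal values for 13464 probe sets and those of number 2 for 11101, of which 4445 and 3044 lay above the lowest value by more than 0.1. The seedling arrays had no such common lowest value, so levels are compared within a system only. Of 20 mesophyll markers 4 have a listed probe set. RCA (9.39 and 9.41) and LHCB4.1 (8.15 and 8.16), for photosynthesis proteins of green cells, were clearly above the lowest value on the WT arrays. LHCB4.2 (4.44 and 4.32) and PSAN (2.28 and 4.00) were under log2 5 there. Of the marker lists for other cells, the guard cell gene FAMA (1 of 8 markers listed), the root hair genes EXPA7 and EXPA18 (2 of 10) and the reproductive genes AMS and MGH3 (2 of 10) were off on all 4 protoplast arrays. The epidermal gene FDH (1 of 7) stood at 13.69 and 14.22 on the WT arrays and at 13.44 and 13.89 with 35S:ORE1, and the vascular gene SWEET11 (1 of 11) at 2.19 and 2.18 and at 2.22 and 2.35. No seed marker is listed.

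The members ranged from barely on to among the brightest probe sets of the array. Their mean log2 value over both 35S:ORE1 arrays ran from 5.27 to 12.74, with a median of 7.24. For 8 members it was at least 10, for 3 it lay from 8 to under 10, for 24 from 6 to under 8 and for 7 under 6. In WT both arrays stood exactly at the lowest value for 25 members, and the largest distance from it for any member was 0.07. The difference of means, a lower bound on the deposited scale, ran from 3.06 to 10.55 with a median of 5.04. The largest difference corresponds to 1502-fold on that scale. Centring each array on its median gave a median of 4.87, and quantile normalization 5.02.

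**Figure D1:**
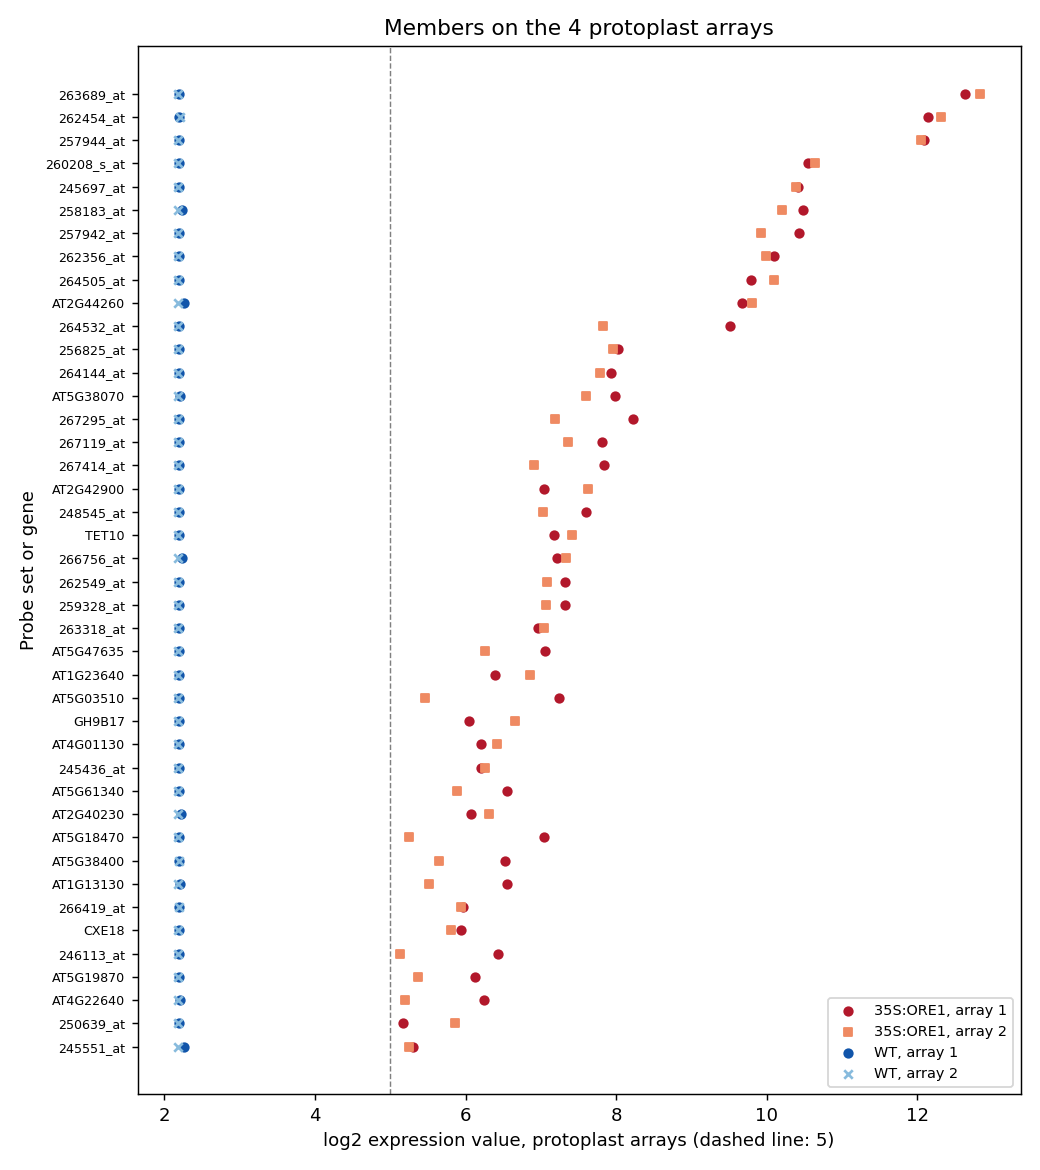
Log2 expression value (x axis) of each of the 42 members (y axis, ordered by the 35S:ORE1 mean) on the 4 protoplast arrays, one symbol per array, with a dashed line at 5. All WT symbols sit within 0.1 of 2.19 or 2.18, and the 35S:ORE1 symbols run from 5.12 to 12.84.

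All 8 members with a 35S:ORE1 mean of at least 10 are probe sets with no listed gene. The brightest, 263689_at, read 12.63 and 12.84 with 35S:ORE1, against 2.19 and 2.18 in WT. The next, 262454_at, read 12.14 and 12.32 against 2.19 and 2.21. The third, 257944_at, read 12.09 and 12.05 against 2.19 and 2.18. These 3 stood above 97.9% to 98.9% of all probe sets on the 35S:ORE1 arrays, mean of both arrays. That no listed gene is among the brightest follows in part from the choice of members, since PASPA3 and other bright listed loci were left out. No listed gene was known for 59.5% of the members, for 45.5% of the 55 probe sets that met the values, and for 38.4% of all probe sets.

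A second step of levels lay near log2 10, above 91.5% to 93.8% of all probe sets on the 35S:ORE1 arrays. There, 260208_s_at read 10.55 and 10.64, and 245697_at read 10.41 and 10.39. The values of 258183_at were 10.49 and 10.21, and those of 257942_at 10.42 and 9.92. For 262356_at they were 10.09 and 10.00. All 5 were within 0.06 of the lowest value in WT, and no WT array overlapped a 35S:ORE1 array, as the rule requires of every member. Below these came 264505_at (9.78 and 10.09), AT2G44260 (9.68 and 9.81, the brightest member with a listed gene), 264532_at (9.51 and 7.82) and 256825_at (8.02 and 7.95). A suffix _s_at marks a probe set that can match more than 1 transcript.

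The 35S:ORE1 replicates were close for most members and apart for some. Of the 42 members, 21 had an SD between both 35S:ORE1 arrays of under 0.2, and the median SD was 0.21 (n = 2). In 27 members array 1 was the higher one. In 7 members the arrays differed by more than 1 log2, and array 1 was higher in all 7, with AT5G18470 (7.05 and 5.25), AT5G03510 (7.24 and 5.46) and 264532_at the widest. Values between both arrays followed each other (Pearson r = 0.953, Spearman rho = 0.860 over the 42 members, a description of points that share the same 2 arrays). Without the 2 members farthest from the median r was 0.934.

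**Figure D2:**
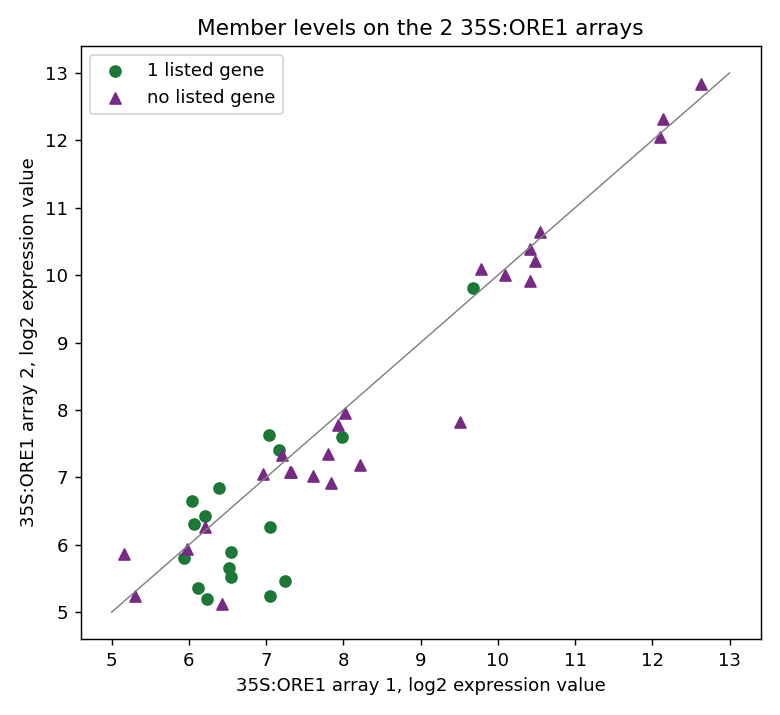
Level of each member on 35S:ORE1 array 1 (x axis) and array 2 (y axis), in log2 expression values, with the line of equality. Circles are the 17 members with 1 listed gene and triangles the 25 with none. The triangles alone reach above 10, and 7 points lie more than 1 unit from the line, all toward array 1.

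Members close to a threshold show how sharp it is. Just inside the on threshold were 246113_at (6.43 and 5.12 with 35S:ORE1) and 250639_at (5.17 and 5.86). Just outside were AT1G55240 (6.00 and 4.97) and AT4G26490 (6.29 and 4.96), off in WT as well. For the off threshold the members nearest to it were 245551_at (2.26 and 2.18 in WT) and AT2G44260 (2.26 and 2.18), and just outside lay 249406_at (2.19 and 2.31) and 253806_at (2.35 and 2.18). The members nearest the on threshold are thus not set apart by level from those outside it.

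The 17 members with a listed gene fall into several classes of protein. For 11 of them a role is given here as background from general knowledge of the Arabidopsis genome, as the gene tables pair locus tags with names and hold no descriptions, and 6 are given by locus alone. The largest classes, of 3 genes each, were enzymes that make or break ester and acyl bonds and proteins of the secreted kind. Each class was named after its members were known, so none was tested.

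The ester and acyl enzymes were on at similar, low levels. CXE18, a carboxylesterase gene, read 5.94 and 5.81 with 35S:ORE1 against 2.19 and 2.18 in WT. AT4G01130, for a GDSL-type lipase, read 6.21 and 6.42 against 2.19 and 2.18. AT2G40230, for an acyltransferase of the BAHD type that joins acyl groups to plant metabolites, read 6.07 and 6.32 against 2.22 and 2.18. Their 35S:ORE1 means of 5.87 to 6.31 all lay under the members' median of 7.24. Of the other carboxylesterase genes with a listed probe set, CXE16 was already expressed in WT (7.82 and 8.12, against 7.99 and 8.54 with 35S:ORE1), and CXE20 had equal values in both groups (2.60 on number 1 and 3.16 on number 2).

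The secreted proteins differed more between the arrays. AT2G42900, for a plant basic secretory protein, read 7.04 and 7.62 with 35S:ORE1 against 2.19 and 2.18 in WT. AT5G47635, for a small protein of the pollen allergen and extensin type, read 7.06 and 6.27 against 2.19 and 2.18. AT5G18470, for a mannose-binding lectin, read 7.05 and 5.25 against 2.19 and 2.18. Array 1 was the higher one for the last 2 and the lower one for AT2G42900.

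Both glycosyl hydrolases of the cell wall kind were weakly on. GH9B17, of the endo-glucanase family, read 6.05 and 6.65 with 35S:ORE1 against 2.19 and 2.18 in WT. AT1G13130, for a cellulase-like hydrolase, read 6.54 and 5.52 against 2.21 and 2.18. Of 15 GH9 genes with a listed probe set all were off in WT protoplasts, 13 of them stayed off, and GH9B17 was the one that came on. GH9A3 was between both states (3.03 and 2.35 with 35S:ORE1). The genes on either side of GH9B17 in the genome order of the gene table are AT4G38990, which is GH9B16, and AT4G39010, which is GH9B18, and both were off on all 4 protoplast arrays.

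The remaining classes are a membrane organiser and possible regulators. TET10, a tetraspanin gene whose family organises membrane domains, read 7.17 and 7.41 with 35S:ORE1 against 2.19 and 2.18 in WT. Of 15 TET genes with a listed probe set, 11 were off in WT, 9 of these stayed off and TET10 alone met the rule. The changes of the other 14 ran from -0.34 to 0.49, with TET3 (7.16 and 7.56 in WT) and TET8 (12.48 and 12.85) expressed in both groups. Of the zinc finger genes, AT5G38070, of the RING type that is known from ubiquitin ligases, read 7.98 and 7.60, and AT5G03510, of the C2H2 type known from transcription factors, 7.24 and 5.46, against 2.20 and 2.19 and against 2.19 and 2.18 in WT.

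The 6 genes given by locus alone cover nearly the whole range of the listed members. AT2G44260 (9.68 and 9.81 with 35S:ORE1) stood far above AT1G23640 (6.39 and 6.85), AT5G61340 (6.55 and 5.89) and AT5G38400 (6.53 and 5.65). AT5G19870 (6.12 and 5.36) and AT4G22640 (6.24 and 5.20) were closest to the on threshold. In WT all 6 lay from 2.18 to 2.26. The difference of means on the deposited scale was 7.53 for AT2G44260 and 3.52 to 4.44 for the other 5.

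The seedling arrays took no part in choosing the members, and first show where these transcripts stand in a whole plant. In mock seedlings the members had a median log2 value of 5.37 (range 3.68 to 11.62). Ranked within the array, their median percentile was 31.3. For 9 members, 21.4%, it lay above 50, against 10.9% of the 8242 probe sets off in both protoplast groups, which had a median percentile of 22.1. The 409 probe sets above the lowest value in WT and at least 2-fold higher with 35S:ORE1 in both numbered pairs had a median percentile of 58.9, and 67.0% of them lay above 50. These shares are descriptions, and their differences were not tested.

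Some members off in WT protoplasts were abundant in seedlings. The probe set 256825_at read 11.46 and 11.78 in mock seedlings, at percentile 97.7. AT5G18470, the lectin gene, read 8.76 and 9.15 there (percentile 81.8), and 263318_at 8.73 and 8.23. At the other end, 257942_at (3.64 and 3.73, percentile 1.09) and 257944_at (3.73 and 3.83, percentile 1.93) were among the dimmest probe sets of the seedling arrays, although both exceeded log2 9.9 on each 35S:ORE1 protoplast array. Across the 42 members the mock seedling percentile and the 35S:ORE1 percentile had a Spearman rho of 0.0592, given as a description.

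**Figure D3:**
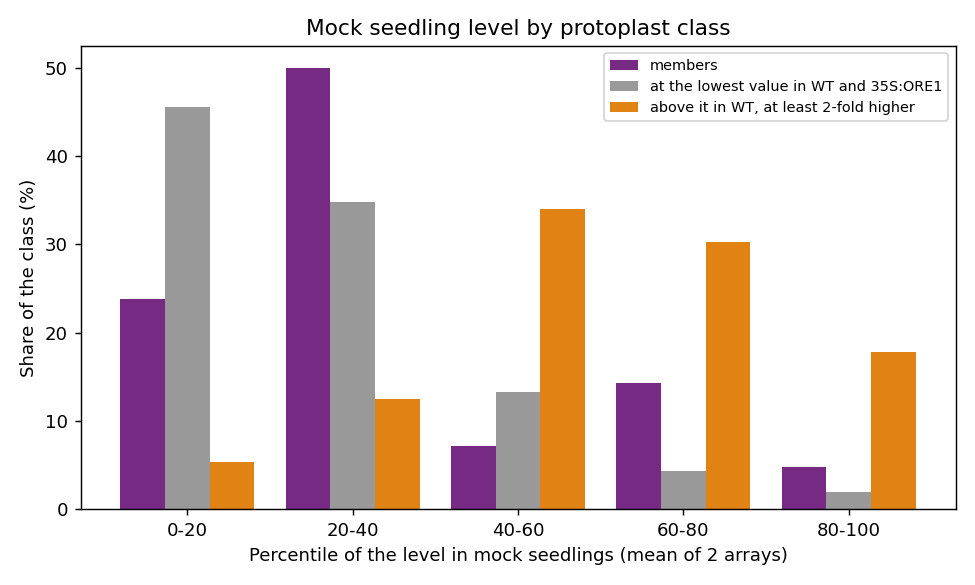
Share of each class of probe sets (y axis, percent) by percentile of the level in mock seedlings (x axis, mean of 2 arrays, bins of 20). Of the 42 members 10 lie in the lowest bin and 21 in the second. These bins hold 45.6% and 34.8% of the probe sets off in both protoplast groups and 5.38% and 12.5% of those raised from above the lowest value.

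The seedling comparison then asked whether the members also changed after 2 h of estradiol. No member passed the test, and 262454_at came closest. It read 7.32 and 7.27 with estradiol and 5.30 and 5.23 with mock (2 arrays in each group). Its mean was 2.03 ± 0.12 higher, or 4.08-fold, with limma adjusted p = 0.463. Here and below ± gives the moderated SE of limma, which borrows spread from all tested probe sets. The groups were far apart, and the change of 262454_at differed by 0.02 between the numbered pairs. In a model of all 8 arrays its adjusted p was 0.0287, but there the spread is pooled with the protoplast arrays, whose nearly constant WT values are what the rule selected. Over its 11 alternatives the adjusted p ran from 0.0287 to 1. ORE1 has no listed probe set, and 262454_at has no listed gene, so whether it measures a responding gene or the transgene was not tested.

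Of the 31 members that reached log2 5 on at least 2 seedling arrays, 0 passed limma at an adjusted p under 0.05, as did 0 of all 17253 probe sets tested (0.0%). At an unadjusted p under 0.05 there were 700 probe sets. Of these 349 were higher with estradiol, 2.02% of those tested, and they include 7 of the 31 members, while no member was lower. Of these 7, AT2G44260 reached log2 5 on the estradiol arrays alone, so its entry in the test came from the group where it was high. Besides 262454_at the members with the largest moderated t were 262356_at, TET10, AT2G44260, 263689_at, 264144_at, 245697_at and 264532_at, each with adjusted p = 1.

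Those 7 had modest changes on the log2 scale and separate groups. They were picked by the moderated t of this same contrast, so the separation follows largely from the pick. The probe set 263689_at read 7.73 and 6.90 with estradiol and 6.41 and 6.10 with mock, a change of 1.06 ± 0.32 (moderated SE). AT2G44260 read 5.71 and 5.12 against 4.57 and 4.53 (0.86 ± 0.23), and 262356_at 6.15 and 6.10 against 5.33 and 5.20 (0.86 ± 0.13). TET10 read 8.15 and 8.57 against 7.57 and 7.70 (0.72 ± 0.19). In each of them both estradiol arrays lay above both mock arrays. The same held for 245697_at (5.68 and 5.87 against 5.44 and 5.07), 264144_at (5.44 and 5.68 against 5.19 and 5.01) and 264532_at (5.76 and 6.19 against 5.52 and 5.73).

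Over all 42 members both estradiol arrays stood above both mock arrays in 14, or 33.3%, against 19.8% of all probe sets, and below both in 3, against 13.3%. In the other 25 the arrays overlapped. A higher mean with estradiol was found in 27 of 42 (64.3%), against 56.4% of all. The median change of the members was 0.13, against 0.03 for all probe sets. It was 0.10 in pair 1 and 0.11 in pair 2. Over the 31 members tested the median was 0.15 against 0.02 over all tested, and it was 0.04 without mock replicate 2. Only 262454_at was at least 2-fold higher in both numbered pairs, where 0.136% of all probe sets were. For 30 of the 42 members the change was within 0.3 of 0.

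Probe sets raised from above the lowest value gave similar figures in seedlings. Their WT values had only to exceed it by more than 0.1, so the class includes dim ones such as SWEET15 (2.56 and 3.78 in WT). Of the 409, both estradiol arrays stood above both mock arrays in 33.7%, and their median change was 0.11. Of the 8242 probe sets off in both protoplast groups it was 19.5%, with a median of 0.03. The 13 left-out loci, which meet the same values as the members, had a median of 0.37, with 9 of 13 higher on both arrays. All 13 had a higher mean with estradiol. The members' shares of higher probe sets therefore lie below those of all 55 that met the rule. These differences were not tested.

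**Figure D4:**
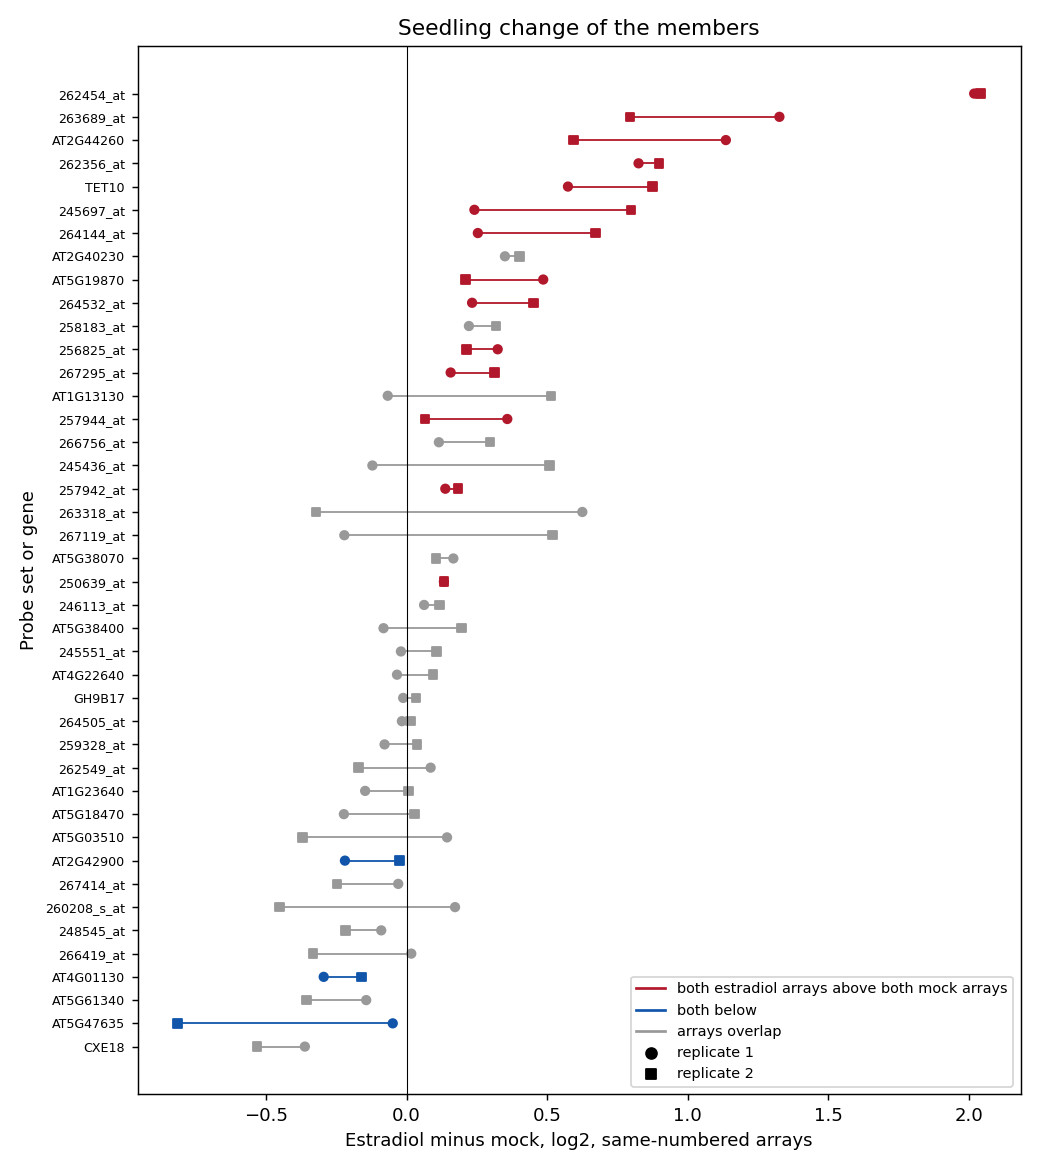
Estradiol minus mock (x axis, log2) for each member (y axis, ordered by the mean change), as a circle for the arrays numbered 1 and a square for those numbered 2. Colours mark the 14 members with both estradiol arrays above both mock arrays, the 3 with both below and the 25 that overlap. One member, 262454_at, stands apart at 2.03, and most others lie within 0.3 of 0.

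The protoplast level and the seedling change were then set side by side. Of the 12 members with the highest 35S:ORE1 mean, a value the rule used, 9 had both estradiol arrays above both mock arrays, and of the other 30 members 5 did, where 19.8% of all probe sets did. Across the 42 members the 35S:ORE1 mean and the seedling change had a Pearson r of 0.606 and a Spearman rho of 0.440, and r was 0.410 without the 2 members farthest from the median 35S:ORE1 mean. These are descriptions across probe sets that share the same arrays, and no test was made. Among the bright members, 260208_s_at (8.50 and 7.20 with estradiol, 8.32 and 7.65 with mock) and 264505_at (6.17 and 5.95 against 6.18 and 5.94) overlapped between the seedling groups. The dim seedling probe sets 257944_at (4.09 and 3.89 against 3.73 and 3.83) and 257942_at (3.77 and 3.91 against 3.64 and 3.73) were not tested there, as they stayed under log2 5.

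By class, the seedling changes of the listed genes were mixed. None of those tested passed, where 0 of all 17253 probe sets did. The largest were those of AT2G44260 (0.86) and the tetraspanin gene TET10 (0.72), both with separate groups, and the others ran from -0.45 to 0.38. In the ester and acyl class AT2G40230 was higher by 0.38 (8.12 and 7.64 with estradiol, 7.77 and 7.24 with mock), while AT4G01130 (-0.23) and CXE18 (-0.45) had lower means. For CXE18 the values were 5.95 and 5.13 against 6.32 and 5.66, so the groups overlapped. Its change was -0.86 without estradiol replicate 1, -0.036 without estradiol replicate 2, -0.12 without mock replicate 1 and -0.77 without mock replicate 2. Of the secreted protein genes, AT2G42900 (-0.12) and AT5G47635 (-0.43) had lower means, the latter below the filter and not tested. AT5G18470 was at -0.10, with 0.03 in pair 2, 0.23 without estradiol replicate 1 and 0.10 without mock replicate 2, so its sign depended on the arrays used. The wall hydrolase gene GH9B17 was at 0.01 ± 0.12 (moderated SE), and AT1G13130 was at 0.22. The RING gene AT5G38070 was at 0.14 and the C2H2 gene AT5G03510 at -0.11. Of the genes given by locus alone, AT5G19870 (0.35; 4.84 and 4.39 against 4.36 and 4.18) was the other one besides AT2G44260 with separate groups, and AT5G61340 (-0.25), AT1G23640 (-0.07), AT5G38400 (0.06) and AT4G22640 (0.03) overlapped.

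The 14 members higher on both estradiol arrays comprise 3 of the 17 with a listed gene and 11 of the 25 with none. Of all probe sets 19.8% were higher in this way, and the difference between both kinds of member was not tested. Beyond those described, they are 256825_at (11.78 and 11.99 with estradiol, 11.46 and 11.78 with mock), 267295_at (4.64 and 4.66 against 4.48 and 4.35) and 250639_at (6.00 and 6.09 against 5.86 and 5.95). The changes of these 3 were 0.27, 0.23 and 0.13. The remaining members with no listed gene overlapped between the seedling groups, with 35S:ORE1 means from 5.27 to 10.59. These include 258183_at (0.27 in seedlings), 266756_at (0.21), 245436_at (0.19), 263318_at (0.15), 267119_at (0.15), 246113_at (0.09) and 245551_at (0.04), and on the lower side 259328_at (-0.02), 262549_at (-0.04), 267414_at (-0.14), 248545_at (-0.15) and 266419_at (-0.16).

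None of the 17 members with a listed gene belongs to the lists of genes set out for the response to ORE1. The 25 members with no listed gene could not be matched to any list, so they may include genes of these lists. Of the lists, 3 of 10 reported ORE1 targets and 4 of 15 genes of developmental cell death have a listed probe set. Those lists are described here for all listed genes in protoplasts, where limma on the 4 protoplast arrays called 374 probe sets higher (3.69% of 10136 tested) and 57 lower (0.562%). A gene under log2 5 on both WT arrays could enter this test only through its 35S:ORE1 values, so its call follows largely from its entry. Of the 4 measured genes of developmental cell death, SCPL48 rose from 9.94 and 9.98 in WT to 14.21 and 14.29. PASPA3, DMP4 and EXI1 were off in WT and meet the value rule itself as left-out loci, so their calls were fixed by that choice. Of 16 measured genes of the SWEET and sugar export list 4 could be tested and were called higher. SWEET2 was expressed in WT (9.50 and 9.65, against 11.11 and 11.24), while SWEET7 (2.19 and 2.18 in WT), SWEET15 (2.56 and 3.78) and SWEET17 (4.71 and 4.85) entered through the 35S:ORE1 arrays alone. Of 5 tested vacuolar and senescence proteases 3 were called higher, SCPL48 and the off genes PASPA3 and ALPHA-VPE. Of 3 tested reported ORE1 targets 2 were, SWEET15 and the off gene SINA1, and of 3 tested senescence-associated genes 0. The acid phosphatase gene PAP20, the 1 measured gene of phosphate recycling, was off in WT too and is a left-out locus. AGL18, the 1 measured gene of the MADS list, did not pass, and the lists for suberin and for secondary walls have no listed probe set. In seedlings no gene of these lists passed, where 0 of all 17253 probe sets tested did. The changes of the reported targets there were 2.08 for SWEET15, 1.81 for SINA1 and 0.16 for NOL. Those of the cell death genes were 1.54 for DMP4, 1.11 for SCPL48, 0.63 for EXI1 and 0.11 for PASPA3. The median change was 0.06 for the SWEET list, 0.17 for the proteases and -0.07 for the senescence-associated genes. Once the replicate number entered as a block, limma on the protoplast arrays called 0 probe sets, 2526 having an unadjusted p under 0.05. The model of all 8 arrays called 656. These list counts therefore rest on the fit without the block. That fit takes no account of the exactly equal values in same-numbered protoplast arrays.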

How the data were processed

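RNA of 8 samples was measured on single-colour Affymetrix arrays, 2 per group. The authors deposited 1 log2 expression value per probe set and array. Per the submitters' processing notes GCRMA and RMA were used, without versions or which arrays each was applied to. Genes came from the platform's probe table, updated through the RefSeq gene table. Of 22810 probe sets, 64 are controls. A probe set with no listed gene is given by its ID.

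The members and the gene lists were chosen with earlier results of these data known. Seedling arrays were fitted by lmFit and eBayes of limma 3.58.1 (R 4.3.3; 2 residual and 2.58 prior degrees of freedom, two-sided, Benjamini-Hochberg) over the 17253 non-control probe sets at log2 5 or more on at least 2 of the 4 seedling arrays. The protoplast arrays were left out of this fit because the rule selected members for near-constant WT values. Of the members 31 were tested and 11 stayed below the filter. An exact permutation test of 2 against 2 cannot pass the threshold and was not used. The fit was tested on simulated data.

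Every listed member was to be named, and values on every array were to be given for the 12 brightest members, for classes of at least 3 genes and for the 8 largest seedling moderated t. Alternatives covered the arrays fitted, the replicate block, scaling, trend, filter and each array left out. The number of arrays limits the precision. A planned count of promoter motifs was not made, as no sequences were used here.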

Additional observations from a re-analysis of the deposited data

Results flagged for a closer look

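In 3 members both estradiol arrays lay below both mock arrays, while the rule had chosen all members for higher values with 35S:ORE1 in protoplasts. They are AT5G47635 (-0.43 in seedlings, 4.65 and 4.26 with estradiol against 4.70 and 5.07 with mock), AT4G01130 (-0.23, 5.34 and 5.53 against 5.63 and 5.69) and AT2G42900 (-0.12, 5.64 and 5.69 against 5.86 and 5.71). The difference between the systems was not tested, since the protoplast side was fixed by the choice of members. Such a separation downward was found in 13.3% of all probe sets.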

How the results depend on the processing

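No member and no probe set passed in seedlings with the replicate number as a block, under either scaling, with a trend, without a filter, with a stricter filter or with any 1 array left out, and the model of all 8 arrays called 1 probe set, the member 262454_at. The replicate number as a block left the members' median seedling change at 0.15, and 262454_at at adjusted p = 0.353. Same-numbered arrays deviated together (0.605 in seedlings, 0.786 in protoplasts). In seedlings 2 pairs do not establish a pairing. In protoplasts the same-numbered arrays of both groups held exactly equal values for 13464 probe sets (number 1) and 11101 (number 2). Differently numbered protoplast arrays held 0 equal values. The protoplast values were thus linked by number, and the main protoplast fit, without the block, does not account for this. Whether the samples themselves were paired was not tested. Among the members tested the median seedling change of 0.15 became 0.13 in the model of all 8 arrays and without a filter, where all 42 enter, 0.13 after quantile normalization, 0.12 after centring and 0.27 at log2 6, where 13 members are left. A higher mean was found in 20 of 31 members and separate groups in 10 (54.0% and 18.5% of all tested), in 19 and 8 after quantile normalization (51.4% and 16.6%), in 19 and 7 after centring (47.8% and 14.4%), in 8 and 5 of 13 at log2 6 (53.3% and 18.6%), and in 27 and 14 of 42 without a filter (56.4% and 19.8%) and in the model of all 8 arrays (54.0% and 18.6%). Leaving out 1 array gave medians of 0.035 to 0.20, 17 to 23 members with a higher mean, and 11 to 17 with separate groups, a looser criterion with 3 arrays that 32.5% to 38.9% of all tested probe sets met. The members' median rise in protoplasts, 5.04, was 4.87 after centring and 4.88 to 5.06 with 1 array left out. The protoplast counts over all probe sets ranged from 0 with the block to 656 in the model of all 8 arrays, both added after the data were seen, against 431. Values at the lowest level of an array have no order, so rises from it are bounds on the deposited scale only.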

Other observations

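The genes next to the listed members in the genome order of the gene table were set beside them. Of 34 protein-coding neighbours of the 17 listed members, 15 have a listed probe set, and 0 of these were at least 2-fold higher in both numbered protoplast pairs. Their median change was 0, with a range of -0.45 to 1.44. The highest was AT1G23610 beside AT1G23640, at 2.19 and 5.06 with 35S:ORE1 against 2.19 and 2.18 in WT, so 1 array carried it.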
